A study of Mus musculus with 9 samples.

Results

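The clustered protocadherin locus was examined for Phf19, Suz12 and trimethylated lysine 27 of histone H3 (H3K27me3) in mouse embryonic stem cells. Its members were all listed sites that shared at least 1 base with the window on chromosome 18 from 37050000 to 38020000 (build mm9, 970 kb), which holds the Pcdha, Pcdhb and Pcdhg gene clusters in this order. The window held 137 of the 22147 sites in the 4 lists: 12 of 4633 Phf19 sites, 63 of 8054 Suz12 sites, 52 of 8280 H3K27me3 sites in control cells and 10 of 1180 H3K27me3 sites in cells depleted of Phf19. It was read in 3 parts, named here for their clusters: the Pcdha part up to 37390000 (340 kb), the Pcdhb part from there to 37750000 (360 kb) and the Pcdhg part from there to the end (270 kb). No site lay across an edge of the window or of a part. In the Suz12 and control H3K27me3 lists, the nearest sites beyond the window lay 163 and 161 kb before it and 138 and 165 kb after it.

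All libraries came from E14Tg2A, an established mouse embryonic stem cell line grown on gelatin without feeder cells, in serum with leukemia inhibitory factor. Phf19 (2 replicates) and Suz12 (1 library) were immunoprecipitated from wild-type cells. H3K27me3 was immunoprecipitated from cells with a random short hairpin RNA (shRd, labelled wild type, called control below) and from cells with a hairpin against Phf19 (shPhf19, labelled Phf19-depleted, called depleted below), 1 library each. The catalogue numbers given for their H3K27me3 antibodies differ, 07449 for shRd and 07450 for shPhf19, so hairpin and antibody number cannot be told apart in these lists. The sources do not say how far the hairpin lowered Phf19, and the lists hold no expression values against which the cell type or the depletion could be checked.

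Clustered protocadherins are cell surface adhesion proteins of the cadherin family that give individual neurons their own surface identity. In the Pcdha and Pcdhg clusters, each of a row of variable first exons has its own promoter and is spliced to constant exons shared by the cluster, while the Pcdhb genes are separate genes with 1 exon each. RefSeq (GRCm38.p6) names 14 Pcdha, 22 Pcdhb and 22 Pcdhg genes on this chromosome, with Slc25a2 and Taf7 between the Pcdhb and Pcdhg genes. Polycomb repressive complex 2 (PRC2), of which Suz12 is a core subunit, writes H3K27me3, a mark of silenced genes. Phf19 is a Polycomb-like protein that associates with PRC2 and binds histone H3 methylated on lysine 36. Sites were not matched to single genes, since no mm9 annotation was used.

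The window was densely filled with Suz12 and control H3K27me3 sites in all 3 parts, and with Phf19 and depleted-cell sites mainly in the Pcdhg part. Control H3K27me3 sites covered 203 kb, or 20.9% of the window, against 0.808% of the rest of chromosome 18 and 0.965% of the other autosomal sequence. Suz12 sites covered 88.7 kb (9.14%, against 0.478% of the rest of the chromosome). Phf19 sites covered 6.34 kb (0.654% against 0.0937%), and the depleted-cell sites 16.5 kb (1.70% against 0.0420%). When the autosomes were cut into 2540 other stretches of 970 kb, none held as many Suz12 sites (at most 54) or as many control H3K27me3 sites (at most 34). With the stretches shifted along the chromosomes, the highest counts were 53 and 41. Merging neighbours within 1 kb left 46 Suz12 and 41 control sites in the window, and the stretches were not compared after merging. By covered length, no other stretch reached the window for control H3K27me3, and 4 did for Suz12. The window stood out less in the other lists: 45 stretches held at least as many Phf19 sites and 9 at least as many depleted-cell sites.

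**Figure D1:**
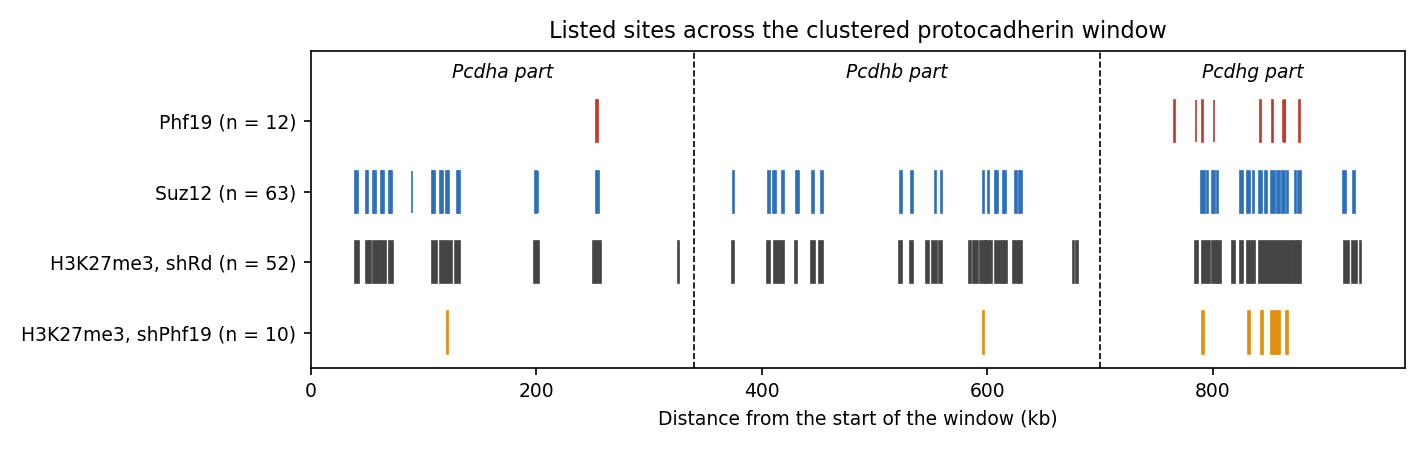
Every listed site of the window, one row per list, against the distance from the start of the window in kb; dashed lines part the Pcdha, Pcdhb and Pcdhg parts. Suz12 and control H3K27me3 sites run through all 3 parts, while 10 of 12 Phf19 sites and 8 of 10 sites of the depleted cells lie in the Pcdhg part.

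The parts held similar numbers of Suz12 sites, while nearly all Phf19 sites lay in the Pcdhg part. Suz12 had 21 sites in the Pcdha part, 22 in the Pcdhb part and 20 in the Pcdhg part, which is 6.18, 6.11 and 7.41 sites per 100 kb. By length they differed more, with 7.95%, 7.35% and 13.0% covered, and at or above the list's median width there were 2, 1 and 8 Suz12 sites. Control H3K27me3 had 12, 25 and 15 sites, or 3.53, 6.94 and 5.56 per 100 kb. The lowest of these densities was still above the 0.277 per 100 kb of the rest of the chromosome. Phf19 had 2, 0 and 10 sites, or 0.588, 0 and 3.70 per 100 kb, and no Phf19 site was listed over 511 kb from the last in the Pcdha part to the first in the Pcdhg part. The depleted cells had 1, 1 and 8 sites. Phf19 sites entered their list only when present in both replicates, and read depth is unknown for all lists, so a missing site does not show that the protein or the mark is absent.

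**Figure D2:**
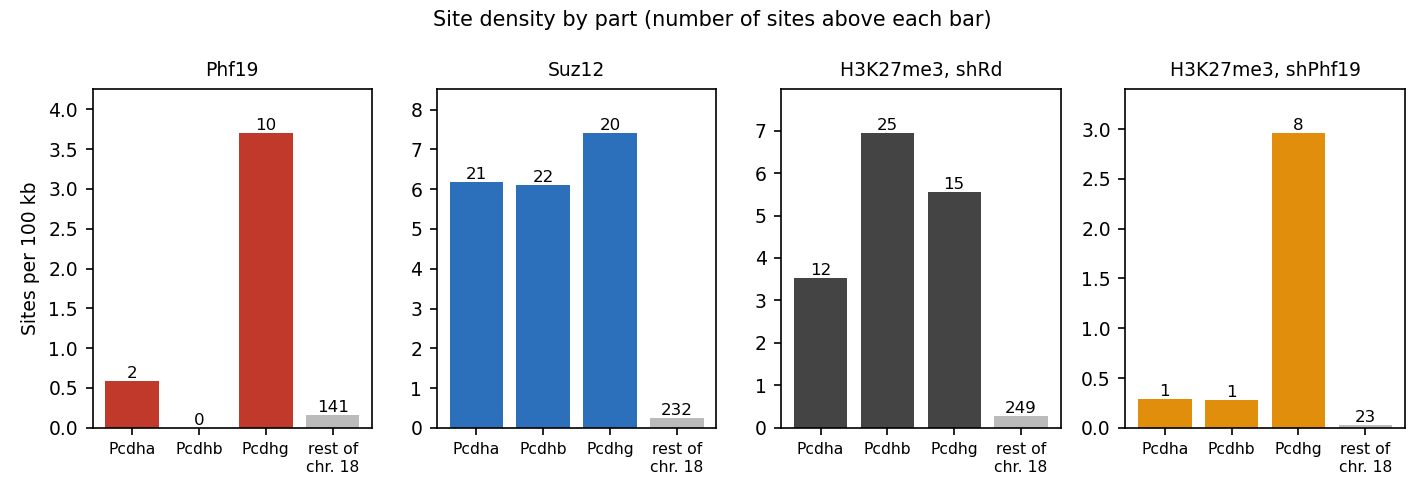
Sites per 100 kb in each part (coloured bars) and in the rest of chromosome 18 (grey), one panel per list with its own vertical axis from 0; the number above each bar is the number of sites. Suz12 stays between 6.11 and 7.41 per 100 kb across the parts, and Phf19 goes from 0 in the Pcdhb part to 3.70 in the Pcdhg part.

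Where Suz12 was listed in the locus, H3K27me3 was listed too. Of the 63 Suz12 sites, 62 overlapped a control H3K27me3 site (98.4%, exact 95% interval 91.5 to 100), against 70.7% of all Suz12 sites. The exception was the narrowest Suz12 site of the window, at 37139697 to 37140100 (403 bp, Pcdha part). Phf19 was listed at 7 of the 63 (11.1%, 4.59 to 21.6), against 23.9% of all Suz12 sites. These 7 were 1 site in the Pcdha part and 6 in the Pcdhg part. This lower share was not seen when Suz12 sites narrower than the median of the list were dropped: 5 of 11 in the window (45.5%) and 41.7% of all then carried Phf19. With the Phf19 list restricted to its wider sites as well, the shares were 36.4% (4 of 11) and 32.1%. Both window shares rest on 11 sites, too few to tell a higher share from an equal or lower one. Suz12 sites of the window were narrower than elsewhere, with a median of 1277 bp (403 to 3476) against 1601.5 bp on the other autosomal sequence. With neighbours within 1 kb merged they were wider, 2117.5 against 1721.0 bp. Those of the Pcdhg part had a median of 1541 bp, those of the Pcdha and Pcdhb parts 1217 and 1227.5 bp. The 3 widest all lay in the Pcdhg part and all held Phf19: 37901572 to 37905048 (3476 bp), 37925342 to 37928273 (2931 bp) and 37890400 to 37893212 (2812 bp). The widest of the Pcdha part, at 37302699 to 37305388 (2689 bp), held Phf19 too, while that of the Pcdhb part, at 37467973 to 37469667 (1694 bp), did not.

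The control H3K27me3 sites of the window were wider than elsewhere, 3204.5 bp in the median (993 to 29867) against 2184 bp. Of the 52, 39 (75.0%, 61.1 to 86.0) held Suz12, near the 69.6% of all control sites and the 79.1% of control sites of the same width deciles. By part, 10 of 12, 17 of 25 and 12 of 15 held it. With both lists restricted to their wider sites, cut at each list's median, the shares were 20.0%, 5.56% and 46.2%, against 70.7% of all such control sites. The 13 without Suz12 were narrower, 1704 bp in the median against 3743 bp. Control sites outside the window showed the same order, 1583 bp without Suz12 against 2572 bp with it. Of the 13, 9 lay within 5 kb of a Suz12 site, in a window where Suz12 sites were spaced 5.26 kb apart in the median. The share within 5 kb was not taken for control sites elsewhere, so this count is not read as particular to the locus. The widest of the 13 was at 37637576 to 37641216 (3640 bp, Pcdhb part).

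Phf19 was listed at 6 of the 52 control H3K27me3 sites (11.5%, 4.35 to 23.4), against 21.4% of all control sites and 30.0% of those in the same width deciles. In the Pcdhb part none of 25 carried Phf19 (0%, 0 to 13.7), where sites of the same width deciles carried it in 24.9% of cases. In the Pcdha part 1 of 12 did (8.33%, 0.211 to 38.5, same deciles 42.7%), and in the Pcdhg part 5 of 15 (33.3%, 11.8 to 61.6, same deciles 28.3%). The intervals treat sites as independent, although neighbours are not, and cover counting error only. The intervals of each pair of parts overlap.

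The Phf19 sites of the Pcdha part were a pair inside the widest Suz12 site of that part. They lay at 37303109 to 37303643 and 37303943 to 37304402, on the control H3K27me3 site at 37300525 to 37307723 (7.20 kb). That H3K27me3 site was the second in width in the Pcdha part and was not listed in the depleted cells. The other 11 control sites of the part had no Phf19. Among them was the widest, at 37164513 to 37175452 (10.9 kb), with 4 Suz12 sites.

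In the Pcdhg part the 10 Phf19 sites ranged from 288 to 934 bp (median 458 bp, against 461 bp on the other autosomal sequence). Over the window, 11 of 12 Phf19 sites overlapped control H3K27me3 (91.7%, 61.5 to 99.8, against 72.2% of all Phf19 sites) and 9 of 12 overlapped Suz12 (75.0%, 42.8 to 94.5, against 73.3%). The 3 without Suz12 were all in the Pcdhg part. The first in order, at 37815226 to 37815868 (642 bp), lay 23892 bp from the nearest Suz12 site and 18261 bp from the nearest control H3K27me3 site, and was the only Phf19 site of the window without either. The next, at 37834567 to 37835005, lay on a control H3K27me3 site 4755 bp from Suz12. The narrowest, at 37913937 to 37914225, lay 91 bp from a Suz12 site. The widest Phf19 sites of the window were at 37891328 to 37892262 (934 bp), 37926153 to 37926816 (663 bp) and the one at 37815226; the first and second of these lay on Suz12.

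**Figure D3:**
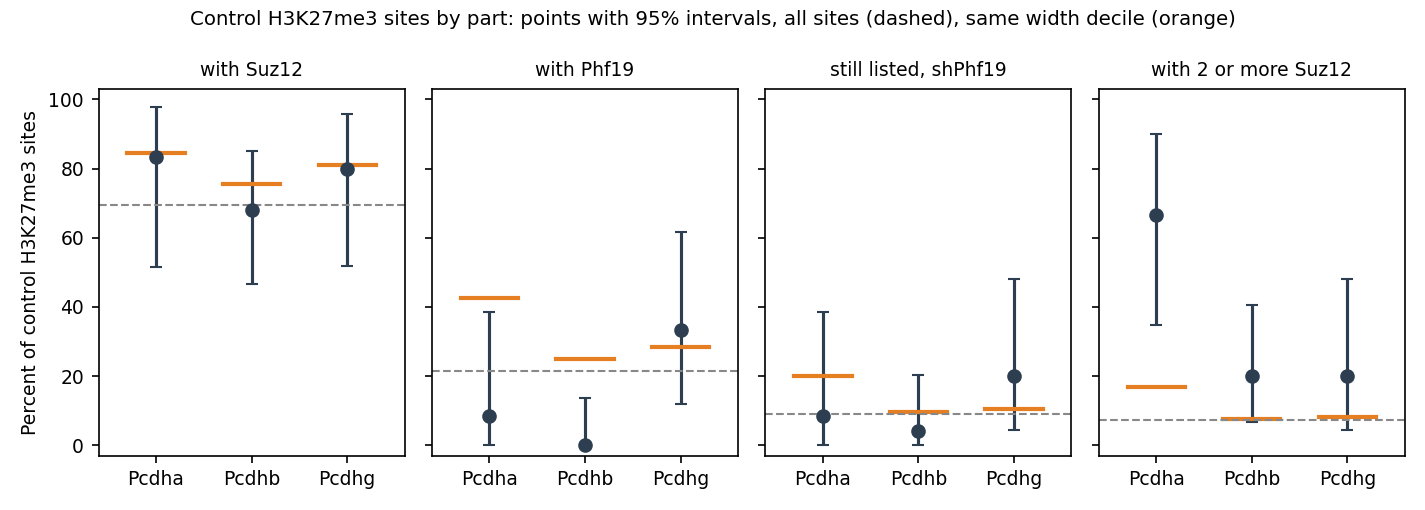
Percent of the control H3K27me3 sites of each part (12, 25 and 15 sites) that held Suz12, held Phf19, were still listed in depleted cells, or held 2 or more Suz12 sites. Points with bars are shares with exact 95% intervals, dashed lines the share of all 8280 control sites, and orange lines the share of control sites in the same width deciles; the Pcdhb point for Phf19 is at 0 and the Pcdha point for 2 or more Suz12 sites at 66.7%.

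Many control H3K27me3 sites of the Pcdha part held Suz12 in several separate pieces. With 2 or more Suz12 sites were 8 of 12 (66.7%, 34.9 to 90.1), against 7.32% of all control sites and 16.9% of those in the same width deciles. The Pcdhb and Pcdhg parts had 5 of 25 and 3 of 15 such sites, both 20.0% (same deciles 7.59% and 8.24%). In the Pcdha part, 7 of the 8 held exactly 2 Suz12 sites, and the smallest gap inside each ranged from 35 to 618 bp (median 182 bp). At the site from 37111218 to 37116981, for example, 2 Suz12 sites of 1118 and 1528 bp stood 165 bp apart. With neighbouring sites within 1 kb merged, 2 of 10 control sites of the Pcdha part (20.0%) held 2 or more Suz12 sites, and with sites narrower than their list's median dropped, none of 10 did. The share over all control sites was not taken under these settings. Whether the Pcdha part exceeds it there is therefore not known, and the 7.32% and 16.9% above do not apply to them. This feature was chosen after the sites were seen. The lists hold no signal, so what lies in these gaps was not tested.

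**Figure D4:**
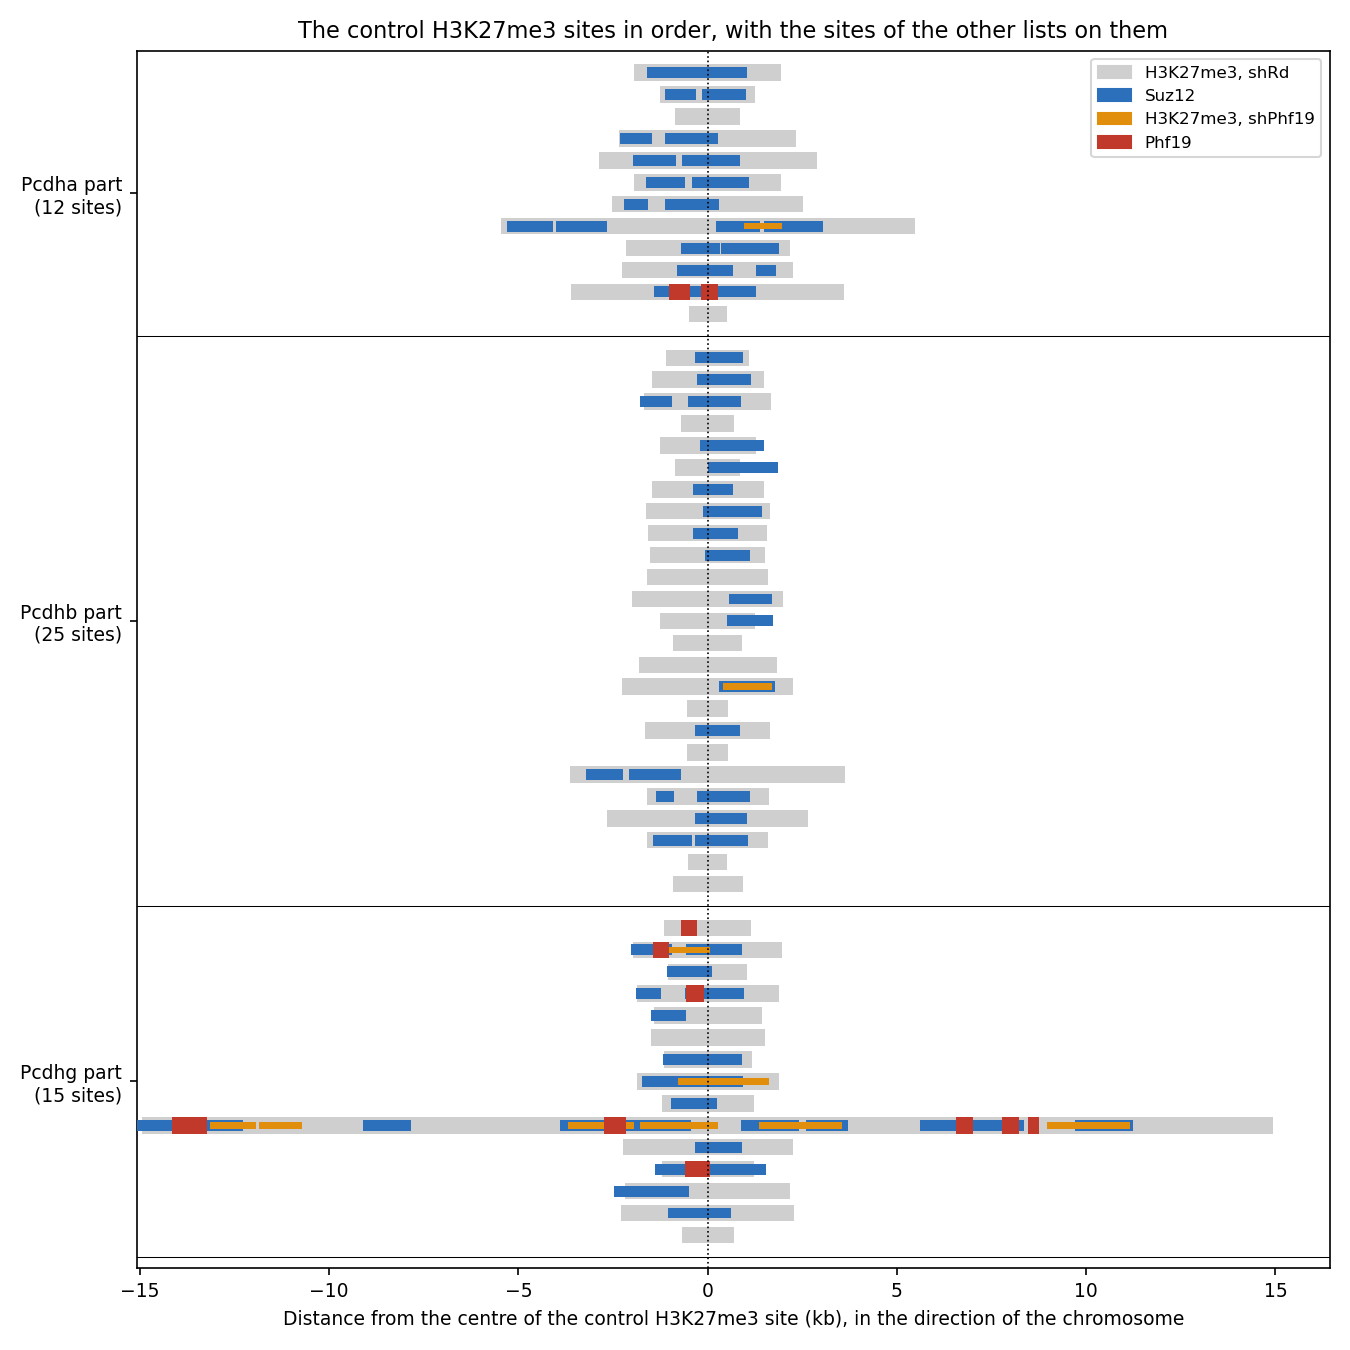
The 52 control H3K27me3 sites (grey) in their order along the chromosome, top to bottom, each aligned at its centre, with the Suz12 (blue), Phf19 (red) and depleted-cell H3K27me3 (orange) sites that overlap it; the horizontal axis is the distance from the centre in kb. Paired Suz12 sites stand in 7 of the 12 rows of the Pcdha part, the Pcdhb part has no Phf19, and 1 row of the Pcdhg part, 29.9 kb wide, holds 6 of the 10 sites of the depleted cells.

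Suz12 lay to the side of higher coordinates at most control H3K27me3 sites of the Pcdhb part, and to the other side at most of those in the Pcdha and Pcdhg parts. This feature too was chosen after the sites were seen and is given without a test. In the Pcdhb part, the centre of the Suz12 bases lay toward higher coordinates than the centre of the H3K27me3 site at 14 of 17 sites with Suz12 (82.4%, 56.6 to 96.2), with a median offset of 348 bp. In the Pcdha part this held at 2 of 10 sites (20.0%, 2.52 to 55.6, median offset -273 bp) and in the Pcdhg part at 2 of 12 (16.7%, 2.09 to 48.4, median offset -385 bp). Over all 5766 control sites with Suz12 the share was 49.9%, which lies inside the interval of the Pcdha part. The genes of the 3 clusters are transcribed in the direction of increasing coordinates, so higher coordinates are downstream. The share over all control sites was taken without regard to gene direction. It therefore cannot show whether the shares of the parts are unusual for loci transcribed in a single direction. The largest offset toward the downstream side was 1140 bp, at 37600875 to 37604877 in the Pcdhb part. The largest toward the upstream side was 1955 bp, at the widest control site of the same part, 37656293 to 37663565. Sites were not matched to promoters, so where these offsets fall relative to exons was not tested.

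In the depleted cells 10 H3K27me3 sites were listed in the window, where control cells had 52 (whole lists: 1180 and 8280). All 10 lay on control sites (100%, 69.2 to 100, against 86.2% of all depleted-cell sites), so none appeared where the control list had none. Of the 52 control sites, 5 were still overlapped by a depleted-cell site (9.62%, 3.20 to 21.0), near the 8.96% of all control sites. With both lists cut to their wider sites in this way the shares were 4.88% and 8.76%. Control sites of the same width deciles were still listed in 12.2% of cases. By part, 1 of 12 (same deciles 19.9%), 1 of 25 (9.53%) and 3 of 15 (10.5%) were still listed, with overlapping intervals. Each condition is 1 library, so these differences have no replicate check.

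By length, a larger share of the control mark was still listed in the Pcdhg part than in the other parts. Depleted-cell sites covered 0.996 of 55.4 kb of control H3K27me3 in the Pcdha part (1.80%), 1.30 of 73.6 kb in the Pcdhb part (1.76%) and 14.2 of 73.5 kb in the Pcdhg part (19.3%). Over all lists the share was 7.02%. Without the 29.9 kb site described below, it was 8.50% in the Pcdhg part. The mean width of the sites was 4619.8, 2943.9 and 4901.0 bp in control cells. It was 1774.9 bp for the 8 depleted-cell sites of the Pcdhg part, near the 1755.6 bp of all depleted-cell sites. The single sites of the Pcdha and Pcdhb parts were 996 and 1296 bp wide. All control sites had a mean width of 2933.9 bp.

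The 5 control sites still listed differed in what they held. Those at 37164513 to 37175452 (Pcdha part) and 37643175 to 37647680 (Pcdhb part, 4.50 kb) held Suz12 without Phf19, and depleted-cell sites covered 9.11% and 28.8% of them. In the Pcdha part this was the widest control site, and the depleted-cell site at 37170950 to 37171946 touched 2 of its 4 Suz12 sites. In the Pcdhb part the depleted-cell site at 37645832 to 37647128 lay inside the only Suz12 site there. The widest control site of the Pcdhb part, at 37656293 to 37663565 (7.27 kb, 2 Suz12 sites), was no longer listed.

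In the Pcdhg part the site at 37879717 to 37883464 (3.75 kb) held Suz12 without Phf19. The depleted-cell site on it, 37880794 to 37883210, was the widest of the window (2416 bp) and covered 64.5% of it. The other still listed sites, at 37839810 to 37843748 (3.94 kb) and 37890549 to 37920416 (29.9 kb), were the only ones of the window that held Phf19, Suz12 and a depleted-cell site together. At the former, a Phf19 site of 437 bp, 2 Suz12 sites and a depleted-cell site at 37840549 to 37841844 (1295 bp) overlapped, and the last covered 32.9% of the control site. Of the 6 control sites with Phf19, 2 were thus still listed, and of the 46 without it 3 were. Elsewhere, 490 of 1770 control sites with Phf19 (27.7%) and 247 of 6458 without it (3.82%) were still listed. These shares were not matched for width. In the narrowest width decile of all control sites, 2.78% held Phf19 and 2.29% were still listed. In the widest decile these shares were 73.6% and 46.1%. Whether sites with and without Phf19 differ at equal width was not tested. The 4 with Phf19 that were no longer listed were the 7.20 kb site of the Pcdha part and, in the Pcdhg part, those at 37834129 to 37836428 (2.30 kb, without Suz12), 37849372 to 37853115 (3.74 kb, with 2 Suz12 sites) and 37925536 to 37927956 (2.42 kb, covered by Suz12 over its whole length).

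The site at 37890549 to 37920416 was the sixth widest of all 8280 control H3K27me3 sites and made up 40.6% of the control length of the Pcdhg part. It held 5 Phf19 sites, 7 Suz12 sites covering 48.1% of it, and 6 depleted-cell sites of 1125 to 2187 bp covering 10.5 kb, or 35.1%. Without this site and those on it, the Pcdhg part kept 5 Phf19 sites, 13 Suz12 sites and 2 depleted-cell sites, so 6 of the 8 depleted-cell sites of that part rested on a single domain. The widest Suz12 site of the window and its widest Phf19 site both lay in it.

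Inside this domain, the depleted-cell sites lay beside Phf19 sites more often than on them. The site at 37901803 to 37903525 overlapped the Phf19 site at 37902738 to 37903321. Those at 37892338 to 37893547, 37914441 to 37916627 and 37903683 to 37905742 stood 76, 216 and 362 bp from the nearest Phf19 site. The remaining ones, at 37893631 to 37894756 and 37906849 to 37909036, were 1369 and 2996 bp away. Over the window, 2 of 10 depleted-cell sites overlapped Phf19 (20.0%, 2.52 to 55.6), against 55.7% of all depleted-cell sites. Counting sites within 1 kb gave 5 of 10 (50%) against 65.8%, and asking for 50% of the shorter site gave 1 of 10 (10.0%) against 45.8%. Suz12 was overlapped by 9 of 10 (90.0%, 55.5 to 99.7), against 82.5%. The exception, at 37893631 to 37894756, lay 419 bp from Suz12.

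**Figure D5:**
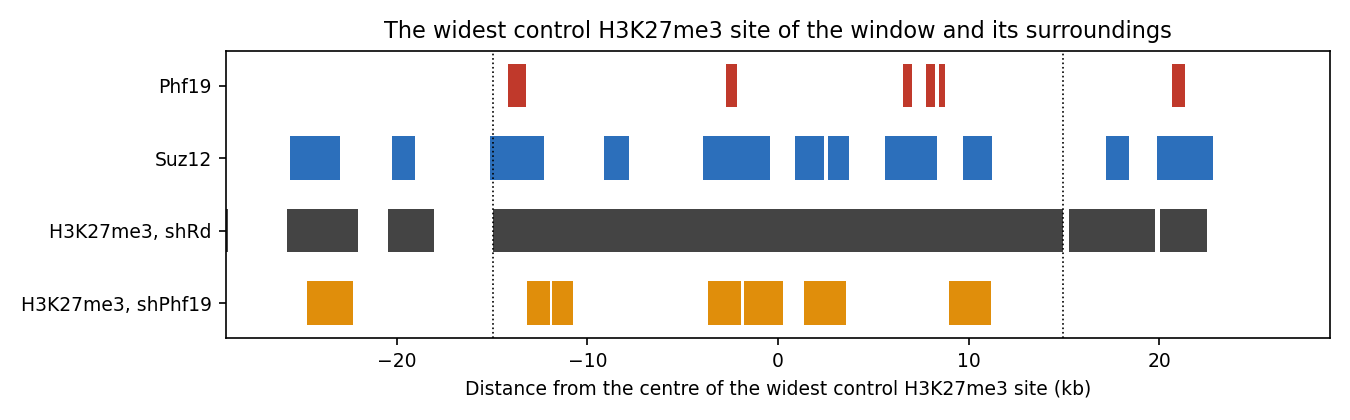
The 29.9 kb control H3K27me3 site of the Pcdhg part (between the dotted lines) and its surroundings, one row per list, against the distance from its centre in kb. It holds 5 Phf19 and 7 Suz12 sites, and of the 6 sites of the depleted cells on it 1 overlaps a Phf19 site.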

How the data were processed

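The authors deposited 4 lists of sites that give a chromosome, a start and an end on mm9 and no other value. The submitters' processing notes name Bowtie 0.12.7 and MACS 1.4.1 without saying what each did. A Phf19 site was kept by the authors when found in both replicates, per the design text; each other list rests on 1 library. Threshold, control library and depth: not given in the sources used here. H3K36me3, H3K36me2 and IgG samples were not analysed here.

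Width is end minus start, a site belongs to the part that holds its centre, and overlap means at least 1 shared base. Intervals are exact (Clopper-Pearson, 95%), given from 10 sites up. Same-decile shares average, over the sites named, the share in each site's width decile of all control sites. No test was run, since sites of a locus are not replicates. Named are the widest sites by list and part, all depleted-cell sites, all control sites still listed and those with all lists; others were named after their values were seen. Members, parts and measures were chosen with earlier results of these data known. Alternatives were the overlap definition, merged neighbours, wider sites alone (in all lists or in a single list), moved boundaries and sites wholly inside the window. Also counted were the same-decile background, the widest control site left out and shifted stretches. Overlap counts equalled those of bedtools 2.31.1 for 12 of 12 pairs of lists and were tested on simulated data. Analyses ran in Python 3.11.15 with scipy 1.17.1, pandas 2.3.3 and numpy 2.4.6; mm9 chromosome lengths were used.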

Additional observations from a re-analysis of the deposited data

How the results depend on the processing

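Of 161 alternatives to 47 values, 132 stayed within the interval of the share or within 1.5 times the count, median or length share, and 29 moved further. Among those that stayed, 12 kept only sites wholly inside the window and could not move, since no site lay across an edge. Another 4 changed only the background share beside the value, so they could not move either. The 0 Phf19 sites of the Pcdhb part could not change on merging or filtering. None of the alternatives that changed only the overlap definition or the boundaries by 20 kb moved further. The intervals are wide, though: depleted-cell sites with Phf19 ranged from 10.0% to 50% over the overlap definitions. With the boundaries 20 kb lower, the control sites were 11 in the Pcdha and 26 in the Pcdhb part. No other count changed when the boundaries were moved, since no other site changed part, so most of these alternatives could not move. Merging neighbours within 1 kb gave 1 Phf19 and 12 Suz12 sites in the Pcdha part, a median Suz12 width of 2117.5 bp, 20.0% of Pcdha control sites with 2 or more Suz12 sites, and 0% of Pcdhg control sites with the Suz12 centre toward higher coordinates. Dropping sites narrower than their list's median left, in the Pcdha, Pcdhb and Pcdhg parts, 2, 1 and 8 Suz12 sites and 0, 0 and 5 depleted-cell sites, with 1 Phf19 site in the Pcdha and 5 in the Pcdhg part. Control sites with Suz12 then made up 20.0%, 5.56% and 46.2% (70.7% of all such sites), and 0% of the Pcdha and 0% of the Pcdhb control sites were still listed. Suz12 sites with H3K27me3 were then 100% (11 of 11, against 74.0% of all such sites). Those with Phf19 were 36.4% (4 of 11, against 32.1% of all such sites). Filtering the Suz12 list alone gave 45.5% (41.7% of all) and filtering the Phf19 list alone 7.94% (17.6% of all), both added after seeing the data. With 2 or more Suz12 sites there were, with all lists filtered, 0% in the Pcdha and 0% in the Pcdhb part, and the Suz12 centre lay toward higher coordinates at 0% of 2 Pcdha sites and 100% of 1 Pcdhb site. For both features, the share over all control sites was not taken under merging or the width filter. Without the widest control site, chosen after seeing the data, the Pcdhg part kept 5 Phf19, 13 Suz12 and 2 depleted-cell sites, and 8.50% of its control length was still listed. Shifting the stretches of equal length, also added later, moved no count beyond 1.5 times. For shifts under the width filter and merging, fewer or joined sites follow from the setting; any other cause was not tested. The lists leave out whatever fell below the unknown threshold of the peak calls. No paired analysis was possible because each list compared comes without replicate columns; for the same reason no Phf19 replicate was left out.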

Other observations

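Control sites of the Pcdhb part were spaced 6.06 kb apart in the median (2.34 to 70.4 kb between centres), those of the Pcdhg part 6.32 kb (3.74 to 41.3) and those of the Pcdha part 10.3 kb (2.15 to 72.3). Between neighbouring control sites, the longest stretch of the window without one was 104 kb, at 37730119 to 37834129 across the border of the Pcdhb and Pcdhg parts, and it held 1 Phf19 site and no Suz12 site.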
